A study of Homo sapiens and Mus musculus with 16 samples.

Results

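10 lineage genes were followed in the mRNA of the SK-HEP-1 cell line: ALB, AFP, APOA1 and HNF4A for the hepatocyte, KRT8 and KRT18 for the simple epithelial cell, VIM for the mesenchymal cell, CDH5 and PECAM1 for the endothelial cell, and CAV1 for caveolae. They were chosen by name, with earlier results of these data known, and all 10 were among the 22314 genes of the mRNA table. SK-HEP-1 is a human line that the labels call a liver cell line and the study treats as hepatocarcinoma, while a vascular origin has also been proposed for it. The question was which of these lineages its mRNA showed, first in the untreated cells and then after AcFBE, an ethanol extract of the fruiting bodies of the medicinal fungus Antrodia cinnamomea. The cells received DMSO alone (U, untreated) or 0.5 mg/ml AcFBE (T, treated) for 2 or 4 h, which made the conditions 2U, 2T, 4U and 4T. mRNA was sequenced in 1 library per condition, so that no mRNA difference has a replicate check and no p-value is given. Small RNA was sequenced in 2 batches of SK-HEP-1 cells, each on another SOLiD sequencer, and in 1 batch of BNL CL.2, a line from mouse liver, under the same conditions. The whole line was sequenced as a mixture, and in such bulk RNA fewer cells of a kind and less RNA per cell cannot be told apart.

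A hepatocyte is known by what it secretes. Albumin, apolipoproteins and clotting factors leave the cell in large amounts, and their genes are driven together by a network of nuclear factors that includes HNF4A, FOXA proteins and CEBPA. Hepatocytes also build their cytoskeleton from the keratin pair KRT8 and KRT18, as other simple epithelia do, whereas endothelial and mesenchymal cells use the filament protein vimentin. Endothelial cells are joined by VE-cadherin (CDH5) and PECAM-1, and, like fibroblasts, they are rich in caveolae, the small membrane pits that caveolin-1 (CAV1) shapes.

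The mRNA levels are FPKM (fragments per kilobase of transcript and per 1000000 mapped fragments), which are divided by transcript length. The cDNA was amplified by PCR before it was fragmented, and the part of this in differences between genes was not tested. Levels of different genes are therefore set side by side as a description only. A level of 1 FPKM was used as the minimum for a gene counted as detected. At or above it in both 2U and 4U were 4 of the 10 members (KRT8, KRT18, VIM and CAV1), beside 4628 of the 22314 genes, or 20.7%. Another 5 members (ALB, APOA1, HNF4A, CDH5 and PECAM1) were listed at 0 in all 4 libraries, as were 10754 genes of the table, or 48.2%. AFP was the remaining member, at 0.222 FPKM in 2U and 0 in 2T, then 0 in 4U and 0.621 in 4T. A value of 0 in this table is not proof of silence. DICER1, which every cell uses, was listed at 0 in all 4 libraries, and TPI1, a glycolytic enzyme singled out after its values were seen, was listed at 0 in 2U and 2T but at 5818 FPKM in 4U and 3956 in 4T. In all, 43 genes were at 0 in both 2 h libraries and at 10 FPKM or more in both 4 h libraries, and 0 genes showed the reverse. A gene is therefore only called listed at 0 here, and groups of genes were read rather than single zeros. The FPKM sums of the libraries were similar, at 786224 to 845681. The genes above 0 differed more, with 10691 in 2U and 8454 in 2T, then 9550 in 4U and 9773 in 4T. Values between 0 and 0.2 FPKM occurred in 2U (2656 genes) and 2T (1173 genes) and in neither 4 h library. Of 22 genes that every cell uses, 18 were at or above 1 FPKM in 2U and 4U, led by GAPDH, RPS3, RPLP0, ACTB and B2M.

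**Figure D1:**
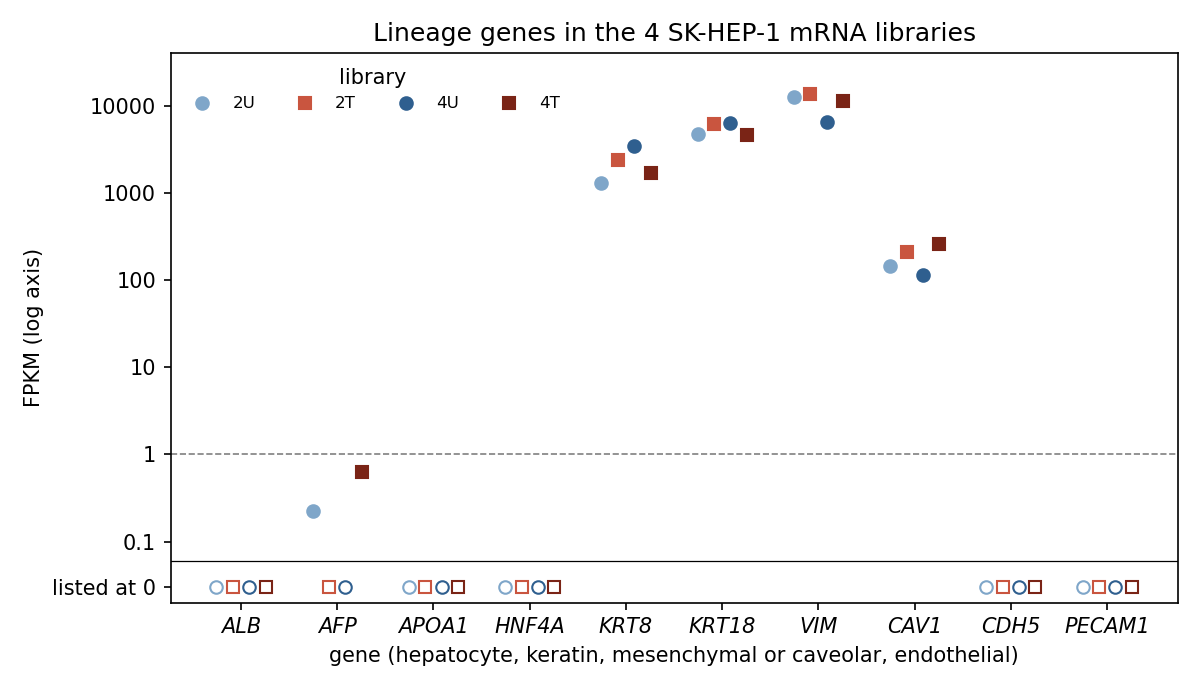
FPKM of the 10 lineage genes (log axis) in the 4 SK-HEP-1 mRNA libraries, 1 point per library, with circles for untreated and squares for treated cells, pale for 2 h and dark for 4 h, and open symbols for values listed at 0. VIM, KRT18, KRT8 and CAV1 sat between 115 and 13625 FPKM in every library, while the hepatocyte and endothelial genes lay at 0 or, for AFP, under the dashed line at 1 FPKM.

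The hepatocyte genes were at or near 0. ALB encodes serum albumin and AFP encodes alpha-fetoprotein, its fetal counterpart, which many liver tumours make again. Both belong to one gene family and lie in a row on the same strand of chromosome 4, ALB at chr4:74262831-74287199 and AFP at chr4:74296855-74321891 (GRCh37), 9656 bases apart. APOA1 at chr11:116706467-116708338 encodes the main protein of high-density lipoprotein, and HNF4A at chr20:42984339-43061485 encodes the nuclear receptor at the centre of the hepatocyte network. Among the 19 genes for secreted proteins, 16 were at 0 in all 4 libraries, including the fibrinogen chains FGA, FGB and FGG, transthyretin (TTR), transferrin (TF), APOB and AHSG. The exception was SERPINA1, which encodes alpha-1-antitrypsin and is also made outside the liver. SERPINA1 stood at 18.7 FPKM in 2U and 17.0 in 2T, then 13.8 in 4U and 8.59 in 4T. It was thus the only 1 of the 19 at or above 1 FPKM in 2U and 4U, and the lowest of its values was in the 4 h treated library. HPX, the haem carrier hemopexin, had 0.419 FPKM in 2U and was listed at 0 in the others.

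The hepatocyte transcription factors were low as well. Of the 11 such genes reported here, 7 were listed at 0 throughout: HNF4A, FOXA2, ONECUT1, NR1H4, NR1I2, NR5A2 and PROX1. This was 63.6%, beside 84.2% of the secreted proteins and 48.2% of all genes. None of the 11 was at or above 1 FPKM in both untreated libraries. NR1I3, a nuclear receptor that switches on drug metabolism, came closest with 0.940 FPKM in 2U and 0 in 2T, then 2.32 in 4U and 0 in 4T. NR1I3 was thus above 0 in the untreated libraries and listed at 0 in both treated ones. Single zeros of this kind are not read as a change. In 2T, the mRNA library with the fewest genes above 0, none of the 11 was above 0. CEBPA had 0.347 FPKM in 2U, 0.470 in 4U and 0.365 in 4T, FOXA3 had 0.454 in 2U and 0.436 in 4U, and FOXA1 had 0.405 in 4T, with 0 in the libraries not named. The number of detected factors depended on the minimum, being 3 for any value above 0 and 1 at 0.5 FPKM. None of the 16 liver enzymes and receptors was above 0 in any library. They included CYP3A4 and CYP2E1 of drug metabolism, CPS1 and OTC of the urea cycle, G6PC and PCK1 of glucose output, ASGR1 and ASGR2, which form the asialoglycoprotein receptor, and SLC10A1, the bile acid importer.

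The promoters of ALB, AFP and VIM are shown because they differ in CG pairs, the sites of DNA methylation, in which the promoters of tissue genes such as ALB are often poor. The 250 bases before each start site are given 5′ to 3′ on the plus strand (RefSeq, GRCh38.p14), ALB from chr4:73404037-73404286, AFP from chr4:73435971-73436220 and VIM from chr10:17227991-17228240, with CG pairs in capitals.
ALB: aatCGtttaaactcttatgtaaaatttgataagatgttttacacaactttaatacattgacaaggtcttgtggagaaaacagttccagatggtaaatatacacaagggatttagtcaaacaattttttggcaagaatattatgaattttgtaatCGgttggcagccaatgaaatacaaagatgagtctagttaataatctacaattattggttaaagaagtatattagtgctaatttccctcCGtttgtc
AFP: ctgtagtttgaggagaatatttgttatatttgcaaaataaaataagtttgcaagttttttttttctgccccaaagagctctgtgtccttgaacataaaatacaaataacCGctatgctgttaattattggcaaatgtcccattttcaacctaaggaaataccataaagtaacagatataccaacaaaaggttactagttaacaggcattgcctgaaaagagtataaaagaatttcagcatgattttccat
VIM: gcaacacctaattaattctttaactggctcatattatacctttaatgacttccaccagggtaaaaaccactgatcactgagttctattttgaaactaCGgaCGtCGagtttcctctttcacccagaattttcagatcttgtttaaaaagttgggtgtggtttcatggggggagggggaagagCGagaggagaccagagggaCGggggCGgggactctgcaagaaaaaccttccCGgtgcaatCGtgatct
These stretches held 3 CG pairs in ALB, 1 in AFP and 8 in VIM. Over windows of 300 bases, from 250 before to 50 after the start, 6 of the 10 members were found, with 9 windows in all. ALB had 4 CG pairs and AFP had 1, against 10 in VIM and 18 to 36 in the 3 windows of CAV1. The number did not divide detected from undetected members, with 9 and 11 in the windows of HNF4A and 2 in that of KRT8. The median over 35116 RefSeq windows was 14, with quartiles of 4 and 28. These counts describe the letters, and methylation was not measured.

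The endothelial genes were also mostly at 0. CDH5 lies at chr16:66400593-66438687 (GRCh37), and no position for PECAM1 was found in the annotation used. The FPKM were made on the same build, and the part of this in the 0 of PECAM1 was not tested. That 0 is therefore not read as absence. Of 26 endothelial genes, 17 (65.4%) were listed at 0 in all 4 libraries, beside 48.2% of all genes. With CDH5 and PECAM1 these included VWF, the clotting factor that endothelial cells store, KDR and FLT1, the receptors for vascular endothelial growth factor, TEK and TIE1, the angiopoietin receptor and its relative, ERG, CLDN5, PLVAP and CD34. Stabilin-2 (STAB2) and LYVE1, which mark the sinusoids of the liver, were at 0 too. Only ENG and EGFL7 were at or above 1 FPKM in 2U and 4U. NOS3 reached that level in 4U alone, at 1.31 FPKM, and ROBO4 and STAB1 were above 0 in every library without reaching it. ENG encodes endoglin, a co-receptor of the TGF-beta family that mesenchymal cells also carry, and read 22.3 FPKM in 2U and 14.1 in 2T, then 24.8 in 4U and 8.65 in 4T. EGFL7 encodes a secreted endothelial factor and read 5.84 FPKM in 2U and 20.5 in 2T, then 19.9 in 4U and 11.4 in 4T. ENG was lower in the treated library at both times, while EGFL7 was higher at 2 h and lower at 4 h, and its 2 untreated libraries differed by nearly as much as 2U and 2T. Counting any value above 0 in 2U and 4U brought the number of endothelial genes from 2 to 5. Among 10 blood cell genes, 8 were at 0, CD14 stayed under 1 FPKM, and CD68, a lysosomal protein of macrophages that other cells make as well, was at 8.80 to 13.9 FPKM.

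**Figure D2:**
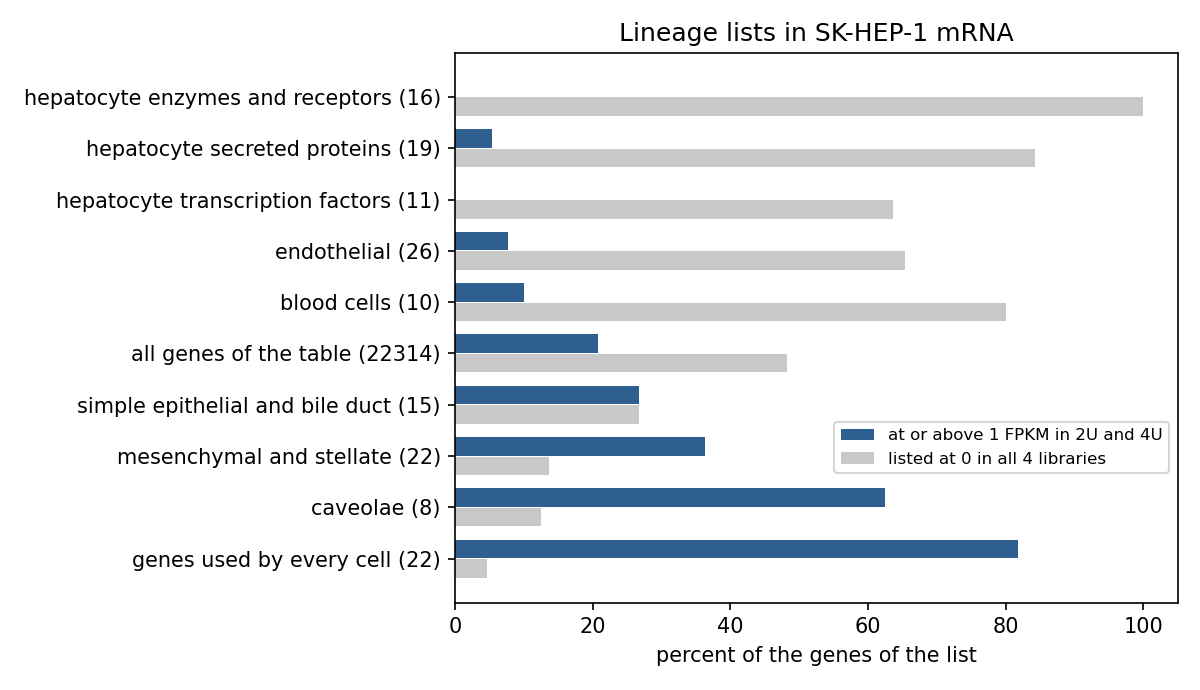
Percent of the genes of each lineage list, with the number of genes in brackets, that were at or above 1 FPKM in both untreated SK-HEP-1 libraries (dark bars) and that were listed at 0 in all 4 libraries (pale bars). The hepatocyte, endothelial and blood cell lists had shorter dark bars than the table as a whole (20.7%) and longer pale bars (48.2%), and the epithelial, mesenchymal and caveolae lists the opposite. The epithelial dark bar (26.7%) was close to that of the table and held only keratins. The blood cell dark bar (10.0%) rests on 1 gene. The lists were chosen with earlier results of these data known, so these contrasts are a description.

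The 4 detected members made 1 order in every library, VIM above KRT18 above KRT8 above CAV1. VIM at chr10:17270240-17279592 (GRCh37) stood at 12525 FPKM in 2U and 13625 in 2T, then 6465 in 4U and 11261 in 4T. These levels ranked VIM 8th, 8th, 27th and 11th among the genes of the 4 libraries, and 4U was the low one. KRT18 at chr12:53342655-53346690 stood at 4664 FPKM in 2U and 6110.3 in 2T, then 6254 in 4U and 4581 in 4T, with ranks from 30 to 40. KRT8 at chr12:53290971-53343738 stood at 1291 FPKM in 2U and 2393 in 2T, then 3439 in 4U and 1684 in 4T, with ranks from 50 to 109. For both keratins 2U and 4T were the low libraries and 2T and 4U the high ones. CAV1 at chr7:116165048-116201233 stood at 144 FPKM in 2U and 210.4 in 2T, then 115 in 4U and 260.3 in 4T. Both treated libraries were above both untreated ones for CAV1, and its ranks ran from 340 to 595. Over the 4 libraries the ranges of these genes did not overlap, but VIM in 4U (6465 FPKM) was close to KRT18 in 2T and 4U (6110.3 and 6254 FPKM).

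Keratin 8 and keratin 18 pair to form 1 filament, and their genes are neighbours. On GRCh37 they overlap by 1084 bases on opposite strands, and the annotation holds 51 pseudogenes of KRT8 and 68 of KRT18, of which 0 had an entry in the table. The use of strand is not given in the sources used here, so the division of reads between this pair and their copies is uncertain. Within each library KRT18 exceeded KRT8 by 3.61-fold in 2U and 2.55-fold in 2T, then 1.82-fold in 4U and 2.72-fold in 4T. VIM exceeded KRT18 by 2.69-fold in 2U, 2.23-fold in 2T and 2.46-fold in 4T but by only 1.03-fold in 4U. These ratios within a library do not depend on how that library was scaled. VIM and KRT18 were thus at similar levels in 4U alone.

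The lists around these members were uneven. Of 15 simple epithelial and bile duct genes, only the 4 keratins were at or above 1 FPKM in 2U and 4U. This was 26.7%, close to the 20.7% of all genes. KRT19, a keratin of bile ducts that hepatocytes lack, stood at 1164 FPKM in 2U and 1195 in 2T, then 1599.7 in 4U and 884 in 4T. KRT7, another bile duct keratin, stood at 528 FPKM in 2U and 257 in 2T, then 317 in 4U and 171 in 4T. The range of KRT19 overlapped that of KRT8, and KRT7 was lower in the treated library at both times. The genes of epithelial junctions and their regulators were not at such levels. E-cadherin (CDH1), ESRP1, GRHL2 and SOX9 were listed at 0 in all 4 libraries, and none of EPCAM, CLDN1, CLDN4, OCLN, DSP and CD24 reached 1 FPKM in any of them, while CLDN7 did so in 4U alone, at 1.02 FPKM.

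Of 22 mesenchymal and stellate cell genes, 8 were at or above 1 FPKM in 2U and 4U, and 3 (COL1A2, PDGFRA and ZEB1) were at 0 throughout. The count was 13 for any value above 0 and 5 at 5 FPKM. Another 8 genes of the list were above 0 in some library but below 1 FPKM in all 4. They were CDH2, COL1A1, COL3A1, COL5A1, PDGFRB, DES, ZEB2 and TWIST1, with CDH2 at 0.256 to 0.734 FPKM. SPARC, a matrix protein, followed VIM with 1073 FPKM in 2U and 1018 in 2T, then 680.3 in 4U and 961 in 4T. Like VIM, SPARC was lowest in 4U. THY1, a surface protein of fibroblasts, gave 25.5 FPKM in 2U and 41.9 in 2T, then 55.6 in 4U and 37.5 in 4T, and was lowest in 2U. ACTA2 and TAGLN, proteins of contractile cells, were at 18.5 to 32.7 FPKM and at 7.30 to 10.7 FPKM. CD44, picked out after its values were seen, was listed at 0 in both 2 h libraries and at 196 FPKM in 4U and 198 in 4T, and so belongs with the genes whose zeros cannot be read. The fibrillar collagens were low, with COL1A1 at 0 in 3 libraries and 0.271 FPKM in 4T and COL3A1 at 0.122 to 0.454 FPKM.

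Caveolae need caveolins and cavins. Of 8 genes for caveolar proteins, 5 were at or above 1 FPKM in 2U and 4U, and the muscle form CAV3 was at 0. CAV2, the partner of caveolin-1, whose gene ends 16453 bases before CAV1, stood at 10.95 FPKM in 2U and 26.3 in 2T, then 14.1 in 4U and 23.7 in 4T. As for CAV1, both treated libraries were above both untreated ones. PTRF (cavin-1), which coats the caveolar pit, stood at 149 FPKM in 2U and 95.9 in 2T, then 221 in 4U and 94.1 in 4T. PTRF thus ran the other way, with both treated libraries below both untreated ones. PRKCDBP (cavin-3) was at 87.0 to 121 FPKM without such a split. EHD2, an ATPase of the caveolar neck, gave 8.13 FPKM in 2U and 4.91 in 2T, then 7.60 in 4U and 3.10 in 4T. It was again lower in the treated library at both times. At 4 h 28.2% of 5971 genes were at least 2-fold lower in the treated library. SDPR, below 1 FPKM in 2U alone, gave 0.276 FPKM in 2U and 2.68 in 2T, then 1.63 in 4U and 1.31 in 4T.

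The treated and untreated libraries were then compared by the log2 ratio of FPKM. Only genes above 0 in both libraries and at or above 1 FPKM in either were compared. A gene with a fold of at least 2 was called past 2-fold. At 2 h none of the 4 detected members passed, while 23.5% of 5475 genes were at least 2-fold higher in 2T and 19.9% at least 2-fold lower. The log2 ratio of 2T to 2U was 0.89 for KRT8, 0.39 for KRT18, 0.12 for VIM and 0.55 for CAV1. At 4 h CAV1 was past 2-fold higher and KRT8 past 2-fold lower, beside 16.6% of 5971 genes higher and 28.2% lower. The log2 ratio of 4T to 4U was -1.03 for KRT8, -0.45 for KRT18, 0.80 for VIM and 1.18 for CAV1. Ratios of this size were thus common in the table. Among the 5971 genes, CAV1 stood at the 87.1 percentile of the 4 h ratios and KRT8 at the 27.3 percentile.

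The level of the whole library moved as well. Over the 4075 genes at or above 1 FPKM in all 4 libraries the median log2 ratio was -0.03 at 2 h and -0.34 at 4 h. Relative to that median, the 4 h ratio was 1.51 for CAV1, 1.14 for VIM, -0.11 for KRT18 and -0.69 for KRT8. On this scale VIM passed 2-fold and KRT8 did not, and CAV1 was past it on both scales. KRT8 also missed it, at -0.997, when each library was scaled to the same sum.

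The 2 untreated libraries, which differ in time alone by their labels, were compared in the same way. This comparison crosses the 2 h and 4 h columns, which differ in their zeros and lowest values as given above, and the part of that in it was not tested. At least 2-fold higher in 4U than in 2U were 23.8% of 5800 genes, KRT8 among them at a log2 ratio of 1.41, and 10.4% were at least 2-fold lower. The ratio of 4U to 2U was 0.42 for KRT18, -0.95 for VIM and -0.32 for CAV1. For VIM and both keratins this difference between the untreated libraries was about as large as, or larger than, that between treated and untreated cells, and it was smaller for CAV1. The 2 treated libraries were closer to each other, with 5.65% of 5382 genes at least 2-fold higher in 4T than in 2T, 5.78% lower, and none of the 4 members past 2-fold. Their log2 ratios of 4T to 2T were -0.51 for KRT8, -0.42 for KRT18, -0.27 for VIM and 0.31 for CAV1. The comparisons of 2T with 2U and of 4U with 2U share the library 2U, and those of 4T with 4U and of 4U with 2U share 4U. With 1 library per condition, treatment and library cannot be told apart for any of these values.

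**Figure D3:**
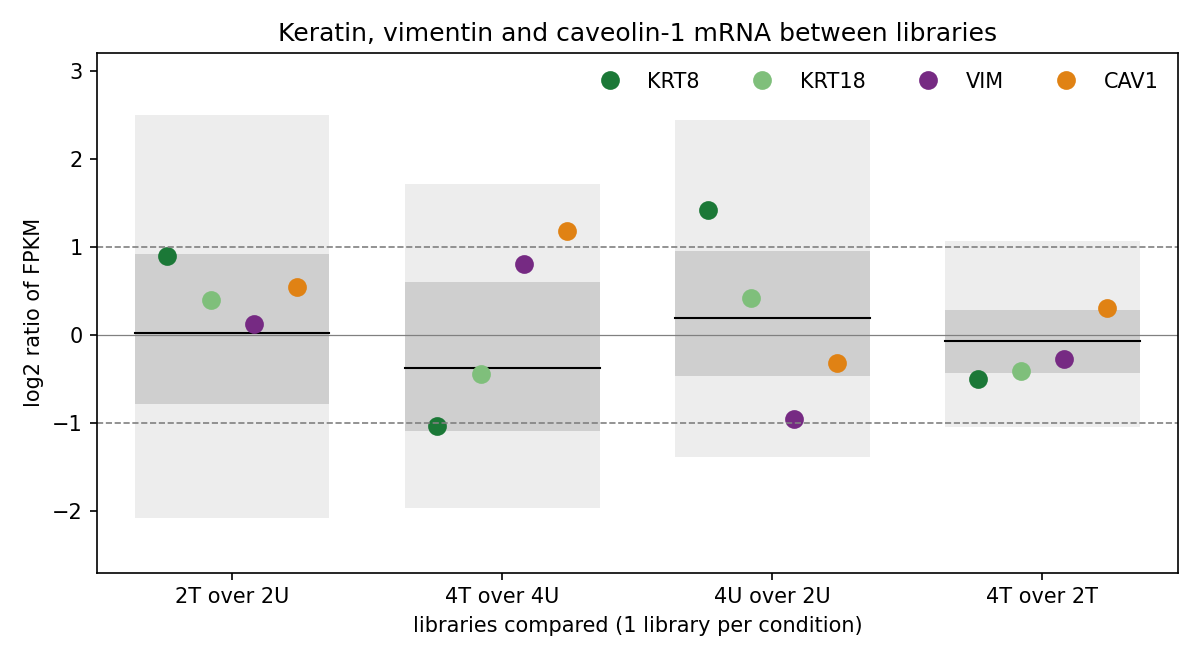
Log2 ratio of FPKM between SK-HEP-1 mRNA libraries for KRT8, KRT18, VIM and CAV1 (points), over the spread of all genes compared. Genes compared were above 0 in both libraries and at or above 1 FPKM in either. The black line is the median, the dark band the middle 50% and the pale band the 5th to 95th percentile, and dashed lines mark 2-fold. KRT8 lay above 0 at 2 h and below it at 4 h, CAV1 lay above 0 at both times, and the bands were widest for 2T over 2U and narrowest for 4T over 2T.

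The genes with the most similar course over the 4 libraries were sought among 1562 genes at 10 FPKM or more in each, by the root mean square difference of log2 FPKM after centring each gene on its own mean. For KRT18 they were PRKCDBP, the cavin-3 gene above (0.03), TUBA4B (0.04) and YKT6 (0.05). For KRT8 they were PHLDA3 (0.04), EGLN2 (0.06) and TWF2 (0.07). CAV1 had DRG1 (0.04), PPIL1 (0.04) and EIF3L (0.06) as its nearest genes, and VIM had SRP68 (0.09), PCID2 (0.10) and MZT2A (0.10). EIF3L, for example, read 577 FPKM in 2U and 846 in 2T, then 442 in 4U and 951 in 4T. With 4 libraries and so many genes such close courses are easily found, and they are given as a description.

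The small RNA libraries gave a reading of lineage from molecules other than the mRNA of the 10 genes. miR-122 is the most abundant miRNA of hepatocytes, miR-126 is an endothelial miRNA whose hairpin sits inside EGFL7, and miR-145 is typical of smooth muscle and other mesenchymal cells. The MIR126 hairpin at chr9:139565054-139565138 (GRCh37) lies in an intron of 4 of the 5 coding transcripts of EGFL7 (chr9:139553308-139567130) and in an exon of 0. Its arms are shown because both were counted separately in these cells, the 3′ arm as miR-126 and the 5′ arm as miR-126*, with the seed (bases 2 to 8) in capitals (RefSeq, GRCh38.p14).
hsa-miR-126-3p: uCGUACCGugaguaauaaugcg
hsa-miR-126-5p: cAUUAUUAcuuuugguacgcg
The arms do not share a seed. They were the lineage miRNAs whose level in SK-HEP-1 could be set beside a detected host gene.

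The deposited miRNA values are counts of reads per known miRNA, and each is given as CPM (counts per 1000000 miRNA counts of its library) with the exact (Clopper-Pearson) 95% interval. The reads carry no molecular identifiers and can be copies of one another, so these intervals cover counting error only. The totals were 817916 and 881237 counts in the untreated libraries of the first SK-HEP-1 batch and 534829 and 683662 in those of the second, against 173239 to 232645 in the treated libraries. Only miRNAs with at least 2 reads were listed, so that a listed 0 can stand for 1 read. Of 13 lineage miRNAs sought, 4 were found in both SK-HEP-1 tables: miR-122, miR-126, miR-126* and miR-145. None of the 5 members of the miR-200 family, which is typical of epithelia, was found in a SK-HEP-1 table used here. Of the 5 mesenchymal miRNAs sought, miR-145 was found there, and miR-143, miR-199a, miR-199b and miR-214 were not. Names were matched whole and without an arm ending, so a miRNA listed by arm would be missed. A name not found is therefore not read as absence.

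miR-122 was low. In the first batch it had 70 counts in 2U (79.4 CPM, 61.9 to 100.4) and 7 in 2T (31.3 CPM, 12.6 to 64.5), then 6 in 4U (7.34 CPM, 2.69 to 15.97) and 19 in 4T (81.7 CPM, 49.2 to 127.5). The 4T library had the highest CPM of miR-122 and lay above 4U beyond counting error, while its interval overlapped that of 2U. In the second batch it had 4 counts in 2U (5.85 CPM, 1.59 to 15.0) and 0 in 2T, then 0 in 4U and 2 in 4T (11.5 CPM, 1.40 to 41.7). The 2U libraries of the 2 batches differed by more than counting error, and the mean of 42.6 ± 52.0 CPM (SD, n = 2) was smaller than its SD. miR-122 ranked 121st in the first of these libraries and 241st in the second.

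miR-126 was far more frequent than miR-122, and ranked 44th and 45th in the 2U libraries. In the first batch it had 1472 counts in 2U (1670.4 CPM, 1586 to 1758) and 201 in 2T (899 CPM), then 1376 in 4U (1682 CPM) and 199 in 4T (855 CPM). In the second batch it had 1210 counts in 2U (1769.9 CPM, 1672 to 1872) and 337 in 2T (1533 CPM), then 0 in 4U and 316 in 4T (1824 CPM). The 0 in 4U stands against 852 counts of the other arm in the same library and was read as a listed 0, not as a level. The 2U libraries gave 1720.1 ± 70.4 CPM (SD, n = 2). The CPM of miR-126 was lower in 2T than in 2U in both batches, and at 4 h the first batch was lower in 4T and the second gave no ratio. The other arm, miR-126*, varied between batches, with 1982 CPM in the first and 491 in the second for 2U, and 830.2 and 1593 for 4U. Its CPM was higher in 2T than in 2U in both batches (2657 against 1982, and 964 against 491), while at 4 h it was higher in 4T in the first batch and lower in the second.

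miR-145 was the most frequent of these miRNAs in 2U and 4U of both batches. It had 2592 counts in 2U of the first batch (2941 CPM, 2829 to 3057) and 2238 in the second (3274 CPM, 3140 to 3412). In 4U it had 3210 counts (3925 CPM) and 2035 counts (3805 CPM). The means were 3107 ± 235 CPM in 2U and 3865 ± 84.6 in 4U (SD, n = 2). After AcFBE it was 2670 and 4276 CPM in 2T and 4947 and 4520 in 4T. It was higher in 4T than in 4U in both batches, and at 2 h the batches went opposite ways. A share of the total says nothing of the absolute amount, and the miRNA totals were lower in all treated SK-HEP-1 libraries. The batches also differ in sequencer, and culture and sequencer cannot be told apart. With 2 libraries per condition no test was made.

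**Figure D4:**
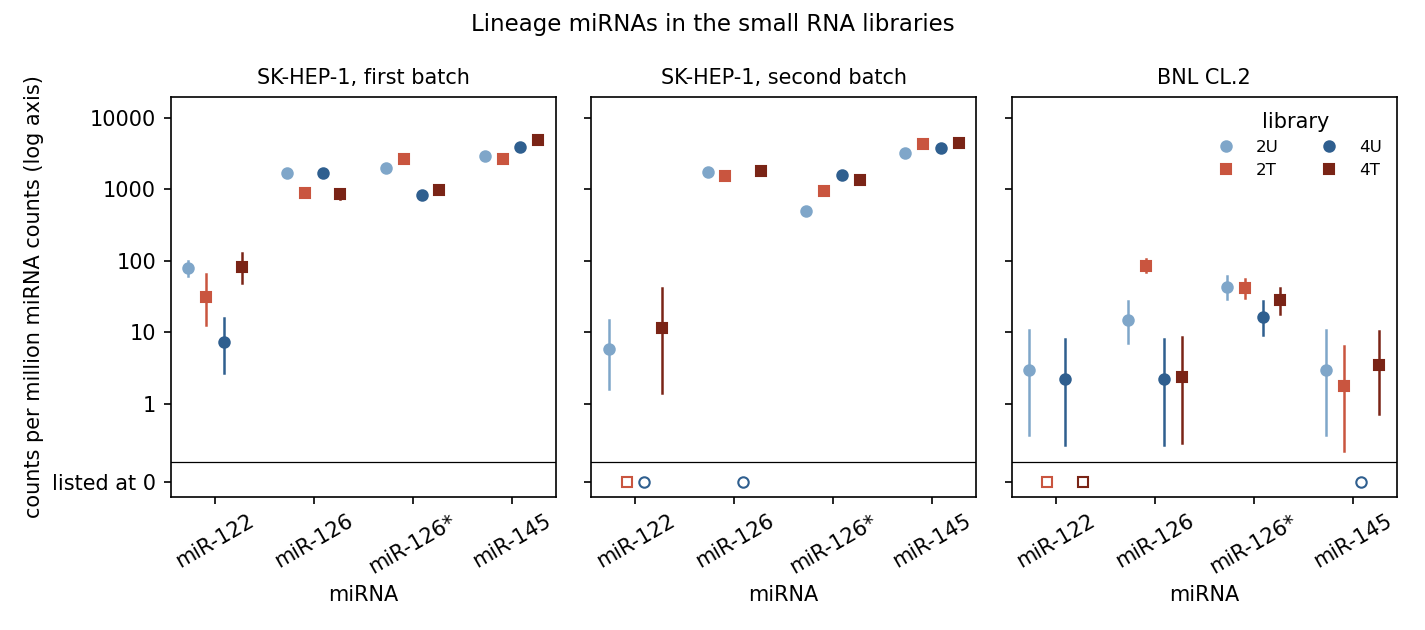
CPM (counts per 1000000 miRNA counts, log axis) of 4 lineage miRNAs in each small RNA library, with exact 95% binomial intervals as vertical lines, circles for untreated and squares for treated cells, pale for 2 h and dark for 4 h, and open symbols for values listed at 0. In SK-HEP-1 cells miR-145 and both arms of miR-126 lay far above miR-122 in both batches, apart from miR-126 in 4U of the second batch, and in BNL CL.2 cells all 4 were under 100 CPM.

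BNL CL.2 cells, set beside these, had little of any lineage miRNA that was found by name. Apart from the arms of miR-126, names were again matched without an arm ending. The totals were 670185 to 1118579 counts. miR-122 had 2 counts in 2U and 0 in 2T, then 2 in 4U and 0 in 4T, and miR-145 had 2, 2, 0 and 3 in the same order. miR-126 had 10 counts in 2U (14.9 CPM, 7.16 to 27.4) and 96 in 2T (85.8 CPM, 69.5 to 104.8), then 2 in 4U and 2 in 4T. The value in 2T was above the others beyond counting error, in 1 library. miR-126 in the SK-HEP-1 libraries with a count ran from 855 to 1824 CPM, above all 4 mouse libraries. Of the miR-200 family 3 members, miR-200a, miR-200b and miR-429, were found in the BNL CL.2 table, each at 0 to 3 counts.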

How the data were processed

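mRNA of SK-HEP-1 cells (4 libraries, 1 per condition, SOLiD 3) and small RNA of this line and of BNL CL.2 (12 libraries) were analysed. The authors deposited FPKM per gene symbol, made per the submitters' processing notes with TopHat and Cufflinks (no version given) on hg19/GRCh37. Per the study's methods the cDNA had been amplified by PCR before it was fragmented, and FPKM give no read depth. They also deposited miRNA counts without normalization, after Cutadapt and Bowtie 0.12.7 and with a minimum of 2 reads.

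Groups came from the sample titles. FPKM were used as deposited, with no pseudocount and a minimum of 1 FPKM. Genes named by rule were the 10 members, the up to 5 highest detected genes of each list, genes at 0 by name, and the 3 nearest courses per detected member. Other genes of the lists, each below 1 FPKM in at least 1 untreated library, were named outside this rule. TPI1 and CD44 were picked after their values were seen. The members and lists were chosen with earlier results of these data known, and 2 genes of the transcription factor list are not reported here. The code for the fold calls was tested on simulated data with little noise, and the number of calls was close to the number of planted changes. This checks the code only and not how far calls in the present data can be relied on. Python 3.11.15, numpy 2.4.6, pandas 2.3.3, scipy 1.17.1 and matplotlib 3.10.9 were used, with gene positions from GENCODE 44 lifted to GRCh37. Alternatives covered the minimum, the untreated library used, the scaling, a pseudocount of 1 and the miRNA total. Leaving out each small RNA batch was added after seeing the data.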

Additional observations from a re-analysis of the deposited data

Results flagged for a closer look

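The log2 ratio of treated to untreated FPKM changed sign between the time points for both keratins. For KRT8 it was 0.89 at 2 h and -1.03 at 4 h, a difference of -1.92. For KRT18 it was 0.39 at 2 h and -0.45 at 4 h, a difference of -0.84. Relative to the median ratio of the genes detected in all 4 libraries the KRT18 value at 4 h was -0.11. Each ratio rests on 1 pair of libraries, so the difference between the times was not tested. The untreated libraries themselves differed by a log2 ratio of 1.41 for KRT8 and 0.42 for KRT18 (4U over 2U), and the part of this in the change of sign was not tested.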

How the results depend on the processing

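None of the values reversed under an alternative. No paired analysis was possible because no result comes from a test, and the treated and untreated small RNA libraries of a batch were set side by side as values only. The number of hepatocyte transcription factors at or above 1 FPKM in 2U and 4U was 0, and became 3 for any value above 0, 1 at 0.5 FPKM, 1 in 4U alone and 1 after scaling each library to the same sum, where NR1I3 in 2U reached the minimum. Counting any value above 0 gave 5 endothelial genes in place of 2, 13 mesenchymal genes in place of 8 and 2 blood cell genes in place of 1, and a minimum of 5 FPKM gave 5 mesenchymal genes. The 4 h log2 ratio of KRT8, -1.03, fell short of 2-fold with the median ratio set to 0 (-0.69) and with equal sums (-0.997), while that of VIM, 0.80, passed it with the median ratio set to 0 (1.14). Leaving the 10 most abundant miRNAs of each library out of the total raised every mean CPM by construction, for 2U and 4U to 213 and 15.4 for miR-122, 7589 and 3527 for miR-126, 5961 and 4485 for miR-126*, and 13661 and 14784 for miR-145. With 2 batches, leaving out the second or the first gives the value of the other, 79.4 or 5.85 CPM for miR-122 in 2U, 7.34 or 0 in 4U, 1670.4 or 1769.9 for miR-126 in 2U, 1682 or 0 in 4U, 1982 or 491 for miR-126* in 2U, 830.2 or 1593 in 4U, 2941 or 3274 for miR-145 in 2U and 3925 or 3805 in 4U. The FPKM table holds no read depth, and no limit was set for a low or absent mRNA.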
